A study of Mus musculus with 4 samples.

Results

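The signal peptidase complex is described here by the XBP1s peaks at the genes of its 5 subunits, the catalytic Sec11a and Sec11c and the accessory Spcs1, Spcs2 and Spcs3. The members were chosen by name: every peak whose nearest gene, as the authors' annotation gives it, is one of these genes was taken. This gave 5 of the 4890 peaks in the deposited table, 1 for each gene. XBP1s binding was mapped by ChIP-seq, the sequencing of DNA precipitated with an antibody against the factor, in natural killer (NK) cells, the cytotoxic lymphocytes of innate immunity, isolated from mouse spleen. The 2 groups are XBP1s immunoprecipitations (2 libraries) and inputs (2 libraries), the input being 2% of the sheared chromatin set aside before the antibody was added. The strain label of all 4 libraries is C57BL/6, and the series' design text gives the mice as Il15TgXbp1f/f, that is, with an Il15 transgene and floxed Xbp1 alleles. It names no Cre. Neither the promoter that drives the transgene nor the number of mice per library is stated in the labels. All cells received IL-15, a cytokine on which NK cells depend, at 50 ng/ml for 1 h, and no untreated cells and no cells lacking XBP1 were analysed here.

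Signal peptidase sits in the membrane of the endoplasmic reticulum (ER) and cuts the signal peptide from secretory and membrane proteins as they enter. SEC11A and SEC11C are alternative catalytic subunits, each of which joins the same accessory proteins. SPCS3 has most of its mass in the lumen, beside the active site, whereas SPCS1 and SPCS2 face mainly the cytosol. XBP1s is the transcription factor made from Xbp1 mRNA after IRE1 has spliced it, and it is known for raising the expression of genes of protein import, folding and export. NK cells pass perforin, granzymes and cytokines through this route.

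RefSeq promoters on GRCm38.p6, the assembly behind mm10, were found for 3 of the 5 genes, the catalytic Sec11a and the accessory Spcs1 and Spcs2. They are shown because the whole of each stretch lies inside an XBP1s peak. Each line gives the 250 bases before the transcription start site (TSS), 5′ to 3′ in the direction of the gene, all 3 from the minus strand. The stretches are chr7:80947551-80947800 for Sec11a, chr14:31001667-31001916 for Spcs1 and chr7:99858884-99859133 for Spcs2. Capitals mark CCACG, the letters shared by several XBP1 and ATF6 sites, or CCAAT, the letters bound by NF-Y, on either strand.
Sec11a: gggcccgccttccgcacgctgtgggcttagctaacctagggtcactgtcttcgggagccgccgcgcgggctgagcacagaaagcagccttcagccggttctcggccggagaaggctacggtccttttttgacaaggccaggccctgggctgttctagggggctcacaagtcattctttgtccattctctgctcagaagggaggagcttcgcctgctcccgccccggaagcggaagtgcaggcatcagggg
Spcs1: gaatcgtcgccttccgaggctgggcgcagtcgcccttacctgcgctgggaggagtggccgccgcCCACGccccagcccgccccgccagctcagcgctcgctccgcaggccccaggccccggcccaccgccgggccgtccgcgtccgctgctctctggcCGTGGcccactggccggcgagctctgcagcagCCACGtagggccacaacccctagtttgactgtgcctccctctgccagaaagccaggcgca
Spcs2: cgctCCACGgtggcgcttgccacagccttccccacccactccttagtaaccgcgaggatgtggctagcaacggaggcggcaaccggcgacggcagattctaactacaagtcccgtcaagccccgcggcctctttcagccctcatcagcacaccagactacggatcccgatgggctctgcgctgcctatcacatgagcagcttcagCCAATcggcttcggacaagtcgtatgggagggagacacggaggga

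The 3 stretches differed in these letters. Spcs1 had 3 matches to CCACG before the TSS, the last of them from -60 to -56 within CCACGT, which also holds the palindromic core ACGT, and a further match began 7 bp after the TSS. Spcs2 had 1 match at -246 and a CCAAT from -45 to -41. Sec11a had none before the TSS and 1 match that began 7 bp after it. Over all 32851 promoters of the same length (250 bases before to 50 after the TSS), 32.8% held CCACG on either strand, 30.9% held ACGT and 37.4% held CCAAT. For the 3752 promoters of genes with a peak, these shares were 53.5%, 49.4% and 38.9%. A CCACG in these windows is therefore common. The GC box GGGCGG, the letters of Sp1 sites, matched in 35.7% of all promoters and 65.6% of those of genes with a peak, and it occurred 2 times at Spcs1, 1 time at Sec11a and not at Spcs2. Promoters of genes with a peak were also richer in G and C (median 60.4% against 52.4% over all promoters). They held more CG pairs (median 18 against 6). CCACG, ACGT and GGGCGG each contain CG, whereas CCAAT does not. Whether the shares differ beyond this composition was not tested.

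Longer elements of the unfolded protein response were absent as exact letters from the 3 windows. These were the unfolded protein response element (TGACGTGG, in 0.676% of all promoters), the ER stress element (ERSE, which is CCAAT, 9 bases of any kind and CCACG, in 0.119%) and ERSE-II (ATTGG, 1 base of any kind and CCACG, in 0.0365%). With 1 mismatch allowed, the only match to any of the 3 was an ERSE-II-like stretch at Spcs1 beginning at -92, where 1.16% of all promoters and 2.35% of those of genes with a peak had such a match. The CCACG matches overlap the longer elements by their construction. A missing match says only that these letters are not in this window, and the peaks reach well beyond it. Within the searched windows, the CCACG match nearest to a peak's centre lay 41 bp from it at Sec11a, 40 bp at Spcs1 and 575 bp at Spcs2, whose peak centre is outside the window.

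All 5 genes carried a peak centred within 5000 bp of the TSS, against 15.9% of 21900 protein-coding genes (3487 genes). The peak widths were 2705 bp at Sec11c and 1141 bp at Sec11a among the catalytic subunits, and 1899 bp at Spcs3, 1440 bp at Spcs2 and 978 bp at Spcs1 among the accessory ones. All exceeded the upper quartile of the widest peak per gene, which was 625 bp over the 3487 genes with a peak, around a median of 410 bp. The narrowest of the 5, at Spcs1, was 2.39 times that median and the widest, at Sec11c, 6.60 times. Width here is the length of the deposited interval, the only quantity the table holds per peak besides its position, since its score is 0 throughout. It is not a measure of signal, and where an interval is the shared part of several calls it is the width of that overlap. The table combines the libraries, so no peak has a value per library, no width has a replicate error, and the depth of the libraries is unknown. The cell label could not be checked by expression. Of 7 genes listed for NK cells, 3 had a peak (Prf1, Gzmb and Il2rb), as did 2 of 9 listed for other blood cells, Cd3d and Lck. These counts describe binding and do not tell cell types apart.

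In the order of the widest peak per gene, Sec11c ranked 5 of 3487, Spcs3 31, Spcs2 94, Sec11a 194 and Spcs1 303. All 5 were thus among the widest 10% of genes, which begins at 937 bp and holds 350 genes (10.0%). Spcs1 lay near its lower edge. Sec11c stood between Eif2a (2751 bp) and Ttc41 (2446 bp), with 259 bp to the narrower neighbour. Spcs3 stood 3 bp below Calr, which encodes the ER chaperone calreticulin (1902 bp), and 35 bp above Sil1, which encodes a nucleotide exchange factor of the ER chaperone BiP (1864 bp). Spcs2 was 1 bp from Eif4g2 and 2 bp from Crem. Sec11a had the same width as Akt1s1, and Spcs1 the same as Tubb6. Without replicates, none of these neighbouring ranks can be told apart by their spread.

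**Figure D1:**
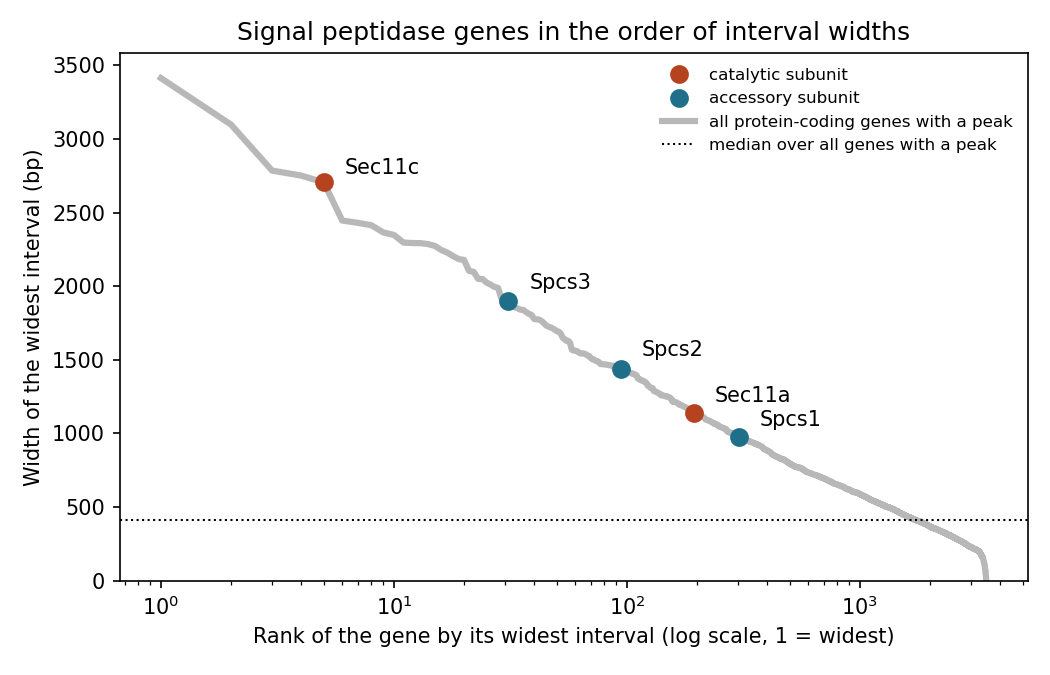
Width in bp of the widest XBP1s interval of each of 3487 protein-coding genes (grey line) against its rank on a log axis, with the catalytic (orange) and accessory (blue) signal peptidase genes as points and the median of 410 bp as a dotted line. The 5 points run from Sec11c at rank 5 to Spcs1 at rank 303, with subunits of each kind at both ends of that stretch.

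Catalytic and accessory subunits did not fall into separate ranges of width. The catalytic genes averaged 1923 bp (1141 and 2705 bp) and the accessory genes 1439 bp (978, 1440 and 1899 bp), a difference of 484 bp. This difference rested on Sec11c. Without Sec11c it was -298 bp, since Sec11a alone was narrower than the accessory mean. Among these members, each kind held a wider and a narrower peak, all of them within the widest 10% of genes. The paralogs Sec11c and Sec11a differed by a factor of 2.37. With 2 genes against 3, and genes not being replicates, no test was made.

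The 5 peaks also differed in position. The TSS implied by the authors' distance was the RefSeq start of the gene for all 5 except Spcs2, where it was the start of the transcript whose promoter is shown above and lay 11457 bp inside the RefSeq gene. Sec11c has its peak on chromosome 18, from 65800024 to 65802728 on mm10, centred 798 bp downstream of the TSS and annotated to intron 1 of 5. Spcs3 has its peak on chromosome 8, from 54528352 to 54530250, centred 697 bp downstream and annotated to intron 1 of 4. The other 3 peaks are annotated to promoters. The peak of Spcs2 (chromosome 7, 99857833 to 99859272) was centred 331 bp downstream, that of Spcs1 (chromosome 14, 31001129 to 31002106) 49 bp downstream, and that of Sec11a (chromosome 7, 80947012 to 80948152) 32 bp upstream, a distance of -32 bp. The annotation class goes by the centre of an interval, and all 5 intervals include the TSS. Among all genes with a peak, 66.4% had a widest peak that spans the TSS. Of the widest 10% of genes, to which all 5 belong, 93.1% had such a peak, and 20.3% had their widest peak annotated to an intron.

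**Figure D2:**
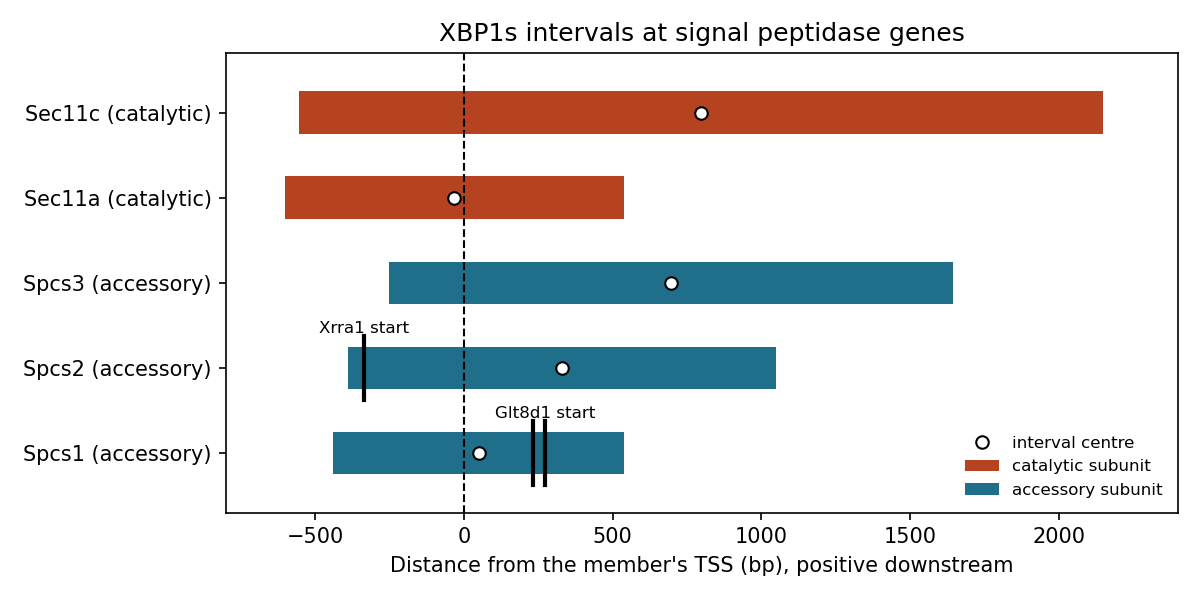
Span of each XBP1s interval relative to the TSS of its gene in bp, positive downstream, with catalytic genes (orange) above accessory genes (blue), circles at interval centres and black ticks at RefSeq promoter-table start sites of other genes. All 5 bars cross the TSS, their upstream ends lie between 252 and 602 bp before it, and their downstream ends lie between 537 and 2150 bp after it.

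The widths differed mainly in how far the peaks reached into the gene. Downstream of the TSS the peaks extended 2150 bp at Sec11c and 538 bp at Sec11a, and 1646 bp at Spcs3, 1050 bp at Spcs2 and 537 bp at Spcs1. This is a range of 1613 bp. Upstream they extended 554 bp at Sec11c and 602 bp at Sec11a, and 252 bp at Spcs3, 389 bp at Spcs2 and 440 bp at Spcs1, a range of 350 bp. The downstream side was the longer one in 4 of the 5 genes, against 60.0% of the 2316 TSS-spanning peaks of all genes. Sec11a was the exception. On the downstream side Sec11c ranked 2 and Spcs3 6 of these 2316 peaks, with Spcs2 at 54, whereas Sec11a (334) and Spcs1 (335) were 1 bp apart. On the upstream side no member ranked above Sec11a at 182, and Spcs3 was 973, close to the middle. Among all spanning peaks, Spcs3 therefore had one of the longest downstream sides beside an ordinary upstream side (the median was 214.5 bp). Among the 326 spanning peaks of the widest 10% of genes, the lower quartile of the upstream side was 390 bp. Spcs3 (252 bp) lay below it, and Spcs2 (389 bp) was level with it to within the 1 bp precision of these sides. The downstream median there was 692.5 bp, above the values of Sec11a and Spcs1. The downstream share of the width was 79.5% at Sec11c and 47.2% at Sec11a, and 86.7% at Spcs3, 72.9% at Spcs2 and 54.9% at Spcs1. The 2 catalytic genes had the longest upstream sides of the 5, a description of 2 against 3 values with no test.

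**Figure D3:**
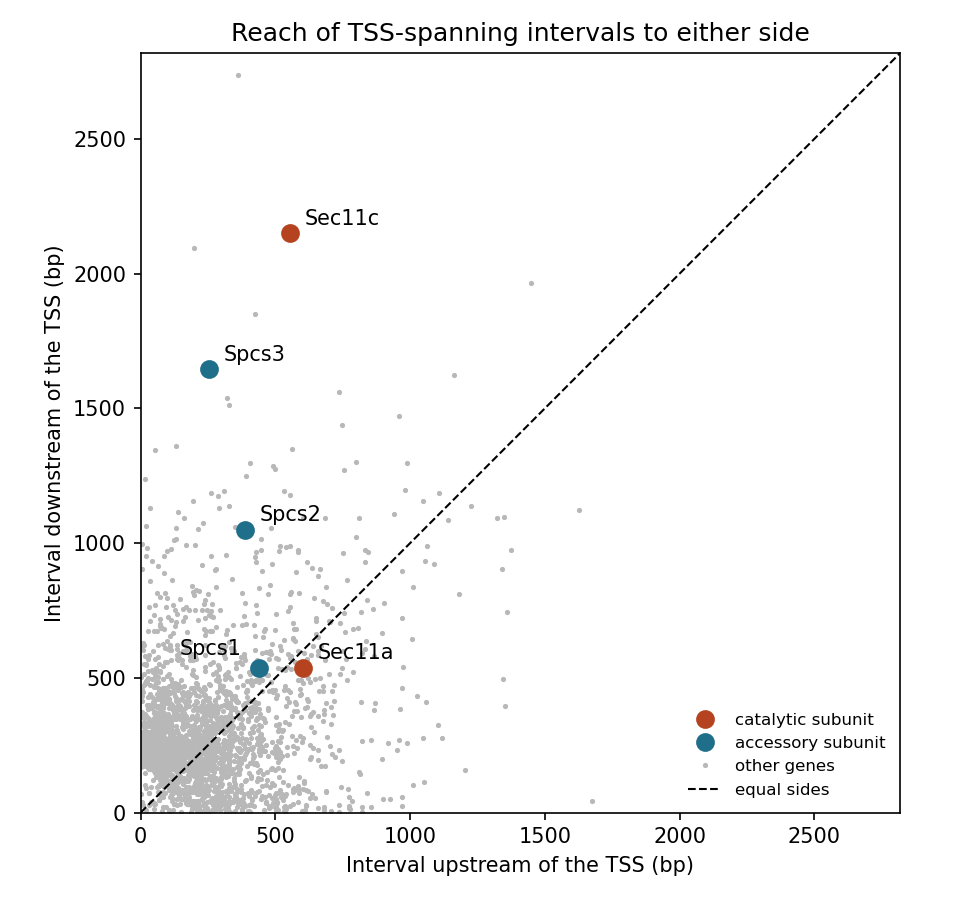
Length of each TSS-spanning interval upstream (x axis, bp) and downstream (y axis, bp) of the TSS for 2316 genes, with the catalytic genes in orange, the accessory genes in blue, the other genes in grey and equal sides as a dashed line. Sec11c, Spcs3 and Spcs2 lie far above the line, Sec11a (602 and 538 bp) and Spcs1 (440 and 537 bp) close to it.

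The peaks also differed in how much of the gene they cover. At Spcs1, a gene of 1841 bp, the interval covers 29.2% of the gene, and at Spcs3, with 9566 bp, it covers 17.2%. At Sec11c (17083 bp) the share is 12.6%, and at Sec11a (32172 bp) it is 1.68%. For Spcs2 the whole interval lies inside the RefSeq gene. Sec11c and Spcs3, which have the longest downstream sides, are neither the longest nor the shortest of the 5.

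For Spcs1 and Spcs2 the interval also holds a start site of another gene on the opposite strand, to which no peak was assigned. At Spcs2 the start of Xrra1 lies 335 bp upstream of the Spcs2 TSS, 54 bp inside the edge of the interval, so that this Spcs2 transcript and Xrra1 run apart from each other. The RefSeq span of Spcs2, which begins 11457 bp farther upstream, overlaps Xrra1. The authors' annotation accordingly names an Xrra1 transcript for the promoter class of this peak and Spcs2 as its nearest gene. At Spcs1 the lower end of the RefSeq gene Glt8d1 lies 469 bp downstream of the Spcs1 TSS and the starts of its promoter entries 233 and 273 bp downstream, all inside Spcs1 and inside the interval, so that these genes overlap too. Binding at these 2 intervals cannot be told apart between the genes that share them. At Sec11a, Sec11c and Spcs3 no end of another RefSeq gene lies within 1000 bp of the interval.

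None of the 5 genes had a second peak at any distance. The nearest other peak lay 15.9 kb from that of Spcs1 (Gnl3), 143.8 kb from that of Sec11a (Iqgap1), 198.8 kb from that of Sec11c, at Lman1, which encodes the ER cargo receptor ERGIC-53, 261.9 kb from that of Spcs2 (Pold3) and 2020.6 kb from that of Spcs3 (Fbxo8). Within 200 kb there were 3 other peaks around Spcs1, 2 around Sec11a, 1 around Sec11c and none around Spcs2 or Spcs3. How common such counts are among all peaks was not computed.

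For each member, the gene with the most similar placement was taken as the one with the smallest sum of absolute differences of both edges from the TSS, among 3482 other genes with a peak. The closest to Spcs2 was the translation factor gene Eif4g2, with a sum of 14 bp. For Spcs1 it was Hspa8, which encodes a cytosolic HSP70 chaperone (20 bp), and for Sec11a the nucleoporin gene Nup98 (48 bp). For Spcs3 it was Tram1, which encodes a membrane protein of the translocation site (176 bp), with a peak of 1857 bp centred 609 bp downstream of its TSS. The closest gene to Sec11c was Vps37c, an ESCRT-I subunit gene, at 412 bp. The closest gene was thus farther away in placement for Sec11c and Spcs3 than for the other 3 members. These are also the widest of the members, at width ranks 5 and 31, where few genes have a peak of similar width. Whether the larger sums mark an unusual placement was not tested.

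The complexes that act just before or beside signal peptidase give the nearest comparison. The signal recognition particle and its receptor bring ribosomes to the ER, the SEC61 translocon and the TRAP complex pass the chain through the membrane, and oligosaccharyltransferase glycosylates it. All 5 signal peptidase genes had a peak, against 9 of 11 translocon and TRAP genes, 11 of 12 oligosaccharyltransferase genes and 7 of 10 genes of the signal recognition particle and its receptor. Among the widest 10% of genes were 5 of 5, 7 of 11, 9 of 12 and 3 of 10 in the same order. Over all protein-coding genes, with or without a peak, this was 350 of 21900. The median width was 1440 bp for signal peptidase, 1421 bp for translocon and TRAP, 1244 bp for oligosaccharyltransferase and 890 bp for the signal recognition particle, against 410 bp over all genes with a peak. Signal peptidase and the translocon thus lay within 19 bp of each other in the median, which for signal peptidase is the width of Spcs2. Genes without a peak of their own name were Sec61a2 and Sec61b, Tusc3, and Srp54a, Srp54b and Srp54c, near-identical copies of one gene in the mouse. The Srp54 copies were counted as 3 of the 10 signal recognition genes, and every other gene of that group had a peak. An end of Sec61b lies inside the 1988 bp peak of Alg2.

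Sec11c had the widest peak of all 32 genes with a peak in these 4 complexes, ahead of Sec61g (2273 bp), a small translocon subunit, and Stt3a (2227 bp), a catalytic subunit of oligosaccharyltransferase. The next widest were Tram1 (1857 bp) and Ssr1 of TRAP (1838 bp) among the translocon genes and Rpn1 (1777 bp) and Ostc (1543 bp) among the oligosaccharyltransferase genes. In the signal recognition group they were the receptor gene Srpr (1468 bp), Srp72 (1186 bp) and Srp68 (1163 bp). Signal peptide peptidase, which cuts signal peptides further within the membrane after their release, is encoded by Hm13, listed in the table under the symbol H13. H13 had a peak of 1253 bp at rank 146, wider than those of Sec11a and Spcs1, and it reached 138.5 bp upstream and 1114.5 bp downstream of the TSS. Of its 4 relatives among the intramembrane proteases, Sppl2a had a peak (285 bp), and Sppl2b, Sppl2c and Sppl3 had none.

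**Figure D4:**
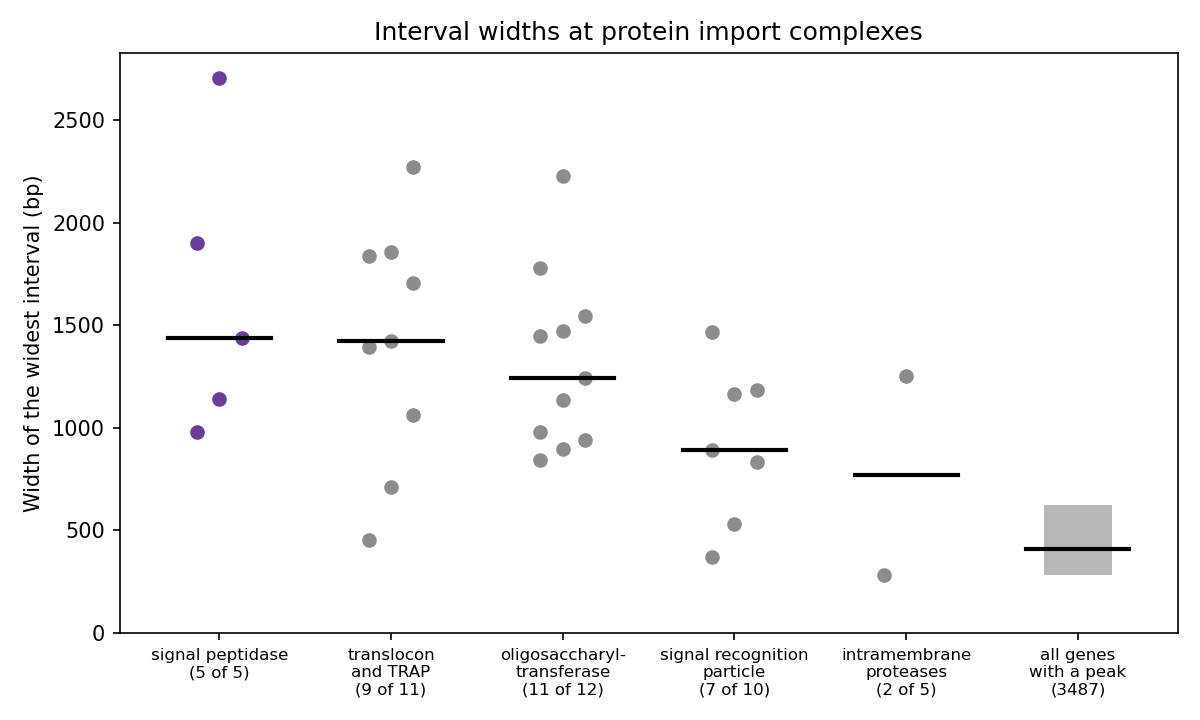
Width in bp of the widest XBP1s interval of each gene with a peak (points), by complex, with signal peptidase in purple, medians as black lines and, at the right, the interquartile range over all 3487 genes with a peak as a grey bar. The lowest signal peptidase gene (978 bp) lies above the upper quartile over all genes (625 bp).

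In placement, the medians of signal peptidase lay closer to those of the translocon than to those of oligosaccharyltransferase, a description with no test. The median centre lay 331 bp downstream of the TSS for signal peptidase, 445 bp for translocon and TRAP, 22 bp for oligosaccharyltransferase and 104 bp for the signal recognition particle, against 47 bp over all genes with a peak. Median downstream sides of the TSS-spanning peaks were 1051 bp, 1214 bp, 675.5 bp and 759 bp in the same order, against 258.5 bp over all genes. Median upstream sides were 440 bp, 366.75 bp, 576 bp and 131 bp, against 214.5 bp. With 5 genes, each signal peptidase median is the value of 1 gene, Spcs2 for centre and downstream side and Spcs1 for upstream side. Both of these intervals also hold a start site of another gene. The centres of Sec11a (-32 bp) and Spcs1 (49 bp) lay closer to the oligosaccharyltransferase median. Those of Spcs2, Spcs3 and Sec11c lay closer to the translocon median. Stt3a and Sec11c differed in form, although each encodes a catalytic subunit and has one of the widest peaks of its complex. The peak of Sec11c reached 554 bp upstream and 2150 bp downstream, whereas that of Stt3a was nearly even, with 1140.5 bp and 1086.5 bp. Their paralogs did not differ in this way. Sec11a (602 and 538 bp) and Stt3b (576 and 404 bp) both had the longer side upstream. Sec61g (423.5 and 1849.5 bp) and Ssr1 (327 and 1511 bp) had the same lopsided form as Sec11c and Spcs3. It also occurred in the other complexes, as at Krtcap2 (173 and 669 bp) and Srp72 (131 and 1055 bp). The downstream side was longer at 4 of 5 signal peptidase and 7 of 8 translocon genes with a spanning peak. For oligosaccharyltransferase this was 6 of 11, and for the signal recognition particle 6 of 7. A downstream side at least 3 times the upstream one occurred in 572 of all 2316 spanning peaks. Among the widest 10% of genes it was 58 of 326.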

How the data were processed

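XBP1s ChIP-seq of mouse splenic NK cells was analysed from 1 deposited peak table. Cells were fixed in 1% formaldehyde for 10 min and chromatin was sonicated, with paired-end reads of 100 bp, per the labels' protocols. Tools in the submitters' processing notes are HOMER (4.11 and 4.11.1), MACS2 (2.2.7.1), Bowtie2 (2.4.5), FastQC (0.11.9) and Trim Galore (0.6.7). The builds listed there are mm10 and GRCm38. Per the file headers, HOMER annotated 1 interval set called common. Neither the combined calls nor their threshold are stated in the labels or the file, so an interval may be the shared part of several calls. The score deposited by the authors is 0 at every peak.

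Width was end minus start plus 1. Upstream and downstream sides were computed from the width and the authors' signed distance, to within 1 bp, and from exact edges for the members. Ranks use the widest peak within 5000 bp of the TSS of each protein-coding gene, matched by Entrez number to RefSeq (GRCm38.p6). The 7 motifs were searched on both strands. Functions were tested on simulated data. Members and lists were chosen with earlier results of these data known, and a fixed rule named the genes: the members, their neighbours in width and position, the most similar gene, and list members with their widest 3. No test was made, since the table has no values per library. Hm13 was matched through its table symbol, H13. Protein sequences were not analysed here. Alternatives varied the window, the peak set, gene assignment, members and motif settings. Python 3.11.15, pandas 2.3.3, NumPy 2.4.6 and matplotlib 3.10.9 were used.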

Additional observations from a re-analysis of the deposited data

How the results depend on the processing

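Of 86 values recomputed under alternatives, 73 stayed equal or within 1.5 times. This count includes alternatives whose outcome the main values already fix. All 5 members kept their peak with a window of 1000 bp, at any distance, with peaks of at least 200 bp and among the widest 50% or 10% of peaks, and their widths were the same when summed over all peaks of the gene. These outcomes could not differ, since each gene has 1 peak, centred at most 798 bp from the TSS and at least 978 bp wide. Their ranks among all 4890 peaks run from 5 to 351. The excess of catalytic over accessory width (484 bp) was 1266 bp without Sec11a, 253.5 bp without Spcs1 and -298 bp without Sec11c. Measured from the nearest edge in place of the centre, positions were -554 bp at Sec11c, 538 bp at Sec11a, -252 bp at Spcs3, -389 bp at Spcs2 and -440 bp at Spcs1, which follows from intervals that span the TSS. Among the widest 10% of peaks, 4 genes of the signal recognition particle had one, and 1 of the 2 intramembrane proteases with a peak, H13, had one among the widest 50% and among the widest 10%. The other 2 values that moved were motif counts given above. Leaving out each replicate was not possible, and neither was the protein comparison. No paired analysis was possible because the table holds no values per library. Depth is unknown, so weak binding at genes without a peak cannot be judged.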
